A study of Homo sapiens with 12 samples.

Results

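Chemokines and homing receptors were examined as a set of 9 listed genes in RNA sequencing of mantle cell lymphoma (MCL) cell lines treated with ironomycin and ibrutinib. The set held the ligands CCL3, CCL4 and CCL22, the receptors CCR7, CXCR4, CXCR5 and S1PR1, the integrin subunit ITGA4 and the growth factor CSF1. The rule names the genes and uses no measured value, but they were chosen with earlier results of these data known. They were looked up among the 63677 Ensembl genes of the count table, of which 39699 could be given a symbol. A row was found for 7 of the 9 members, and all 7 passed the filter on low counts that left 18674 genes for testing. CCL3 and CCL4 were not matched to a row and were not analysed here.

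The 12 libraries came from the established MCL lines JEKO1, JVM2 and MAVER1, each as an untreated control (Ctrl) and after 48 h of ironomycin, ibrutinib or the combination. Ironomycin, derived from salinomycin, holds iron in lysosomes, and ibrutinib inhibits BTK, a kinase downstream of the B-cell receptor (BCR). JEKO1 received 50 nM ironomycin and 0.5 μM ibrutinib, JVM2 received 250 nM and 1.5 μM, and MAVER1 received 250 nM and 6.25 μM, so a difference between JEKO1 and the other lines in the response to ironomycin, and between any lines in the response to ibrutinib or the combination, cannot be told apart from a difference in dose. JVM2 was also grown in medium with less serum than the other lines and at a lower cell density. Each line gave 1 library per treatment, so the 3 lines were the replicates of a treatment (n = 3), and as nothing stated that a line was cultured more than once, p-values measure the spread between these libraries.

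Library totals ran from 35448523 to 38630809 counted reads. Of the B-cell markers, MS4A1 was at 245 to 573 CPM and PAX5 at 157 to 473 CPM over the 12 libraries, where CPM is the count per 1000000 reads after TMM scaling of the library sizes. SOX11, a defining factor of most MCL, was at 0 reads in the JVM2 libraries, where CD5 had at most 2 reads. CCND1 was at 322 CPM in the JVM2 control, against 3178 CPM in the JEKO1 control and 4252 CPM in the MAVER1 control. CR2 was at 0.647 CPM or less in all 12 libraries. The summed level of 9 T-cell and NK-cell markers was 0.376 to 10.0 CPM, that of 10 monocyte and macrophage markers 0.899 to 14.0 CPM with MRC1 at 0, and that of 10 stromal and endothelial markers 2.72 to 33.9 CPM with DCN and LUM at 0. Of these other-cell markers 5 T-cell and NK-cell, 6 monocyte and macrophage, and 4 stromal and endothelial markers were tested. With both drugs against control 2, 1 and 1 were called in that order, where 6.29% of all genes tested were. They were CD3E, CD3G, LYZ and PDGFRB, each lower with both drugs and with a mean of 0.14 log2 CPM or less. Of 12 B-cell and MCL markers, CD5 (-1.84) and SOX11 (1.22) were called with both drugs, on the log2 scale, by the rule given with the tests, where 6.29% of all genes tested were. Both calls were lost without JEKO1 (-1.38 and 1.71), without MAVER1 (-2.21 and 0.72) and with only the 6 libraries compared (-1.84 and 1.19). Those of CD3E, LYZ and PDGFRB were lost in the same settings, and that of CD3G was lost without MAVER1. The PDGFRB call was also lost with library totals (-0.87). CD3G had at most 1 read in any JVM2 or MAVER1 library, so its call rests on JEKO1, with 61 reads in the control and 14 with both drugs. The CD5 call likewise rests on JEKO1, from 676 to 138 reads, and MAVER1, from 1627 to 628 reads.

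Chemokines are small secreted proteins that guide leukocytes by binding receptors coupled to Gi proteins. CXCR4 holds B cells near stroma that makes CXCL12, CXCR5 draws them into follicles and CCR7 into the T-cell zone of lymph nodes, while S1PR1 lets them leave again along a gradient of sphingosine 1-phosphate. ITGA4 is the alpha 4 subunit of the integrins that bind VCAM1 and MAdCAM1, and inhibition of BTK is known to release lymphoma cells from nodes into the blood, where loss of BCR-driven and chemokine-driven adhesion is thought to take part.

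With both drugs against control 1 of 7 members was called, where 6.29% of all genes tested were, and 3 to 5 of 7 were called between pairs of lines, where 34.2% to 46.8% of all genes tested were. CSF1, the growth factor of macrophages, was higher with both drugs than in the controls by 2.60 on the log2 scale (SE 0.68, n = 3), with an 18.2-fold change in JEKO1, 5.89-fold in MAVER1 and 1.36-fold in JVM2. That call was lost without JEKO1 (1.48), without MAVER1 (2.60) and with only the 6 libraries compared (2.37). CCL22 and CCR7 were far higher in JVM2 than in the other lines, and both lay below the control in JEKO1 and above it in JVM2 under each treatment. CXCR4 stayed within 1.32-fold of its control in every line and treatment. CXCR5 had fewer reads under every treatment than in the control in JEKO1 and MAVER1, from low counts, and did not pass the test. In bulk libraries a lower level from fewer cells that make a transcript and from less of it per cell cannot be told apart.

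**Figure D1:**
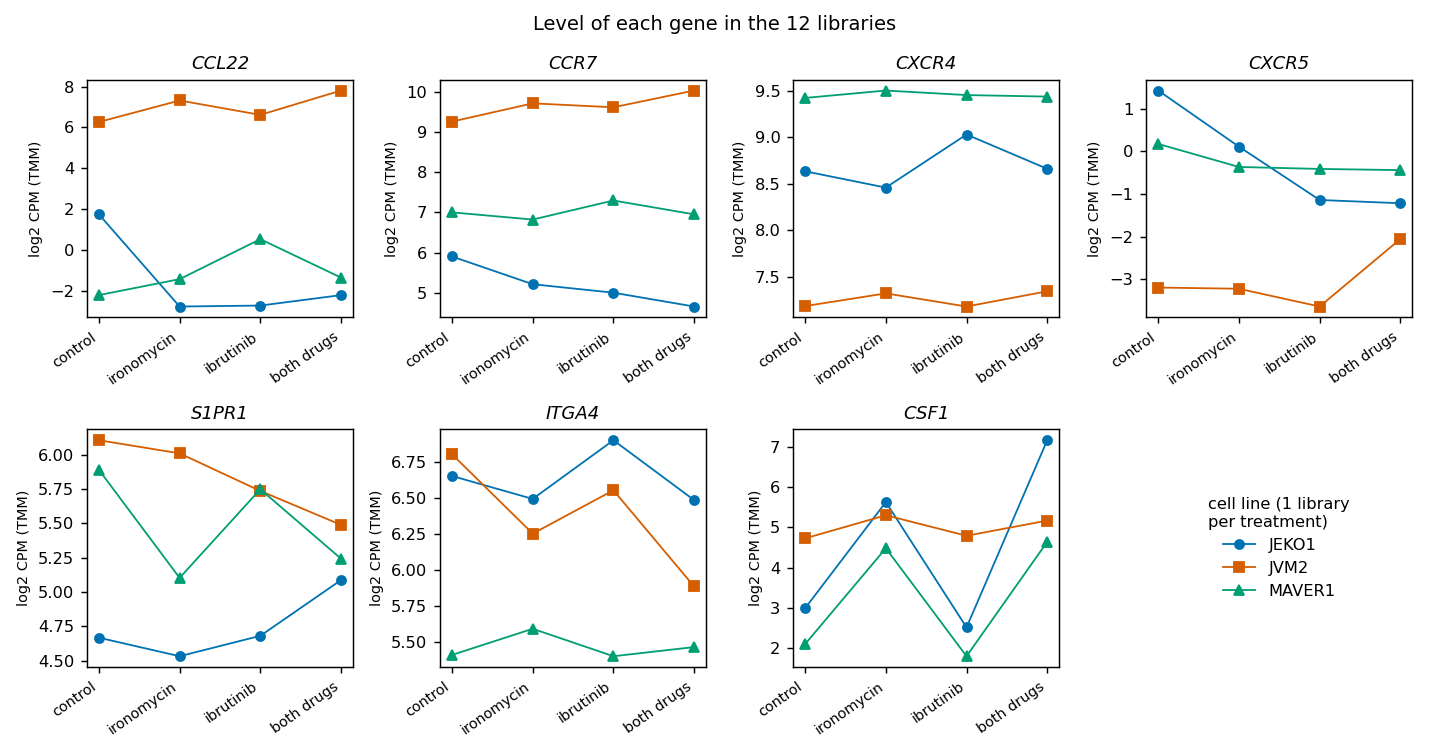
Level of each analysed member (log2 CPM after TMM scaling, y axis, a separate scale for each panel) against treatment (x axis), with 1 point per library and a line joining the 4 libraries of a cell line. CSF1 was above its control with ironomycin and with both drugs, most in JEKO1 and MAVER1, whereas CCL22 and CCR7 separated JVM2 from the other lines under every treatment.

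RefSeq promoter windows were found for 6 of the 9 members (CCL3, CCL22, CXCR4, CXCR5, S1PR1 and ITGA4) and not for CCL4, CCR7 and CSF1. The 250 bases upstream of the start were searched on both strands for the NF-kB site (kappaB), AP-1 (TGANTCA), the cyclic AMP response element (TGACGTCA), the amino acid response element CARE (TGATGNAAT), the antioxidant response element (TGACNNNGC), a FOXO site (GTAAACA) and an ETS site (CCGGAAGT). The AP-1, cyclic AMP, CARE and antioxidant motifs share their first letters, TGA, and can overlap. CCL3 and CXCR4 had 3 windows each, from different starts, and the other members found had 1. A kappaB match lay in CCL22 and S1PR1, and an antioxidant response element match in S1PR1 and in 1 of the 3 windows of CXCR4. Over all 35116 RefSeq windows, which also hold the first bases after the start, kappaB was found in 11.3%, AP-1 in 7.71%, the cyclic AMP element in 1.85%, CARE in 0.991%, the antioxidant element in 13.3%, the FOXO site in 3.42% and the ETS site in 4.14%. The upstream windows of CCL22 and S1PR1, the members with a kappaB match, are printed 5′ to 3′ from RefSeq on GRCh38.p14 with the matches in capitals. CCL22 lies on the plus strand at chr16:57358533-57358782 and S1PR1 on the plus strand at chr1:101236769-101237018.
CCL22: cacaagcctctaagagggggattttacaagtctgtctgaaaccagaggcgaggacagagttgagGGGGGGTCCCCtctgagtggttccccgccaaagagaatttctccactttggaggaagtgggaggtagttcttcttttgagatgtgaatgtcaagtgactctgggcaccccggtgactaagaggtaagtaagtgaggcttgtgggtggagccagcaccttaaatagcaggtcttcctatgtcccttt
S1PR1: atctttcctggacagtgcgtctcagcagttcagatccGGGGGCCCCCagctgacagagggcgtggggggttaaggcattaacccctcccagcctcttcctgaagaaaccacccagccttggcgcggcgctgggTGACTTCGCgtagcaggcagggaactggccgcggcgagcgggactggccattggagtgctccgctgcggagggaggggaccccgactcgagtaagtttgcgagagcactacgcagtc
The capitals in CCL22 mark overlapping kappaB matches whose first bases are at -186 and -185 from the start. In S1PR1 the first capitals mark a kappaB match at -213 and the later ones an antioxidant response element match at -117. These kappaB matches read as a match on both strands and are letters in a window, with no measurement of binding in these data.

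The ligand CCL22 attracts T cells that carry CCR4, regulatory T cells among them. In JEKO1 it had 132 reads in the control, 4 after ironomycin, 4 after ibrutinib and 7 after both drugs. In JVM2 it had 2697 reads in the control, 5815 after ironomycin, 3504 after ibrutinib and 8304 after both drugs. In MAVER1 it had 6 reads in the control, 12 after ironomycin, 52 after ibrutinib and 13 after both drugs. JVM2 therefore stood above the other lines under all treatments, and JEKO1 and MAVER1 overlapped. The exact 95% binomial intervals, which cover counting error only, ran from 2.90 to 4.11 CPM of the unscaled library total in the JEKO1 control and from 0.0291 to 0.273 CPM after ironomycin in that line. JEKO1 moved by -4.51 on the log2 CPM scale with ironomycin, -4.46 with ibrutinib and -3.95 with the combination. JVM2 moved by 1.05, 0.35 and 1.54 in the same order, so the lines lay on opposite sides of 0 with each treatment. MAVER1 moved by 0.78, 2.73 and 0.86, from counts of 52 or fewer. Averaged over the lines, the change with both drugs was -0.24 (SE 1.03), and it was 1.40 without JEKO1.

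CCR7, the receptor for CCL19 and CCL21, had 2378 reads in the JEKO1 control, 1546 after ironomycin, 1270 after ibrutinib and 1062 after both drugs. JVM2 had 21585, 30752, 28195 and 39110 reads in that order, and MAVER1 had 4638, 4217, 5843 and 4695. The ranges of the 3 lines did not overlap. In JEKO1 the log2 ratio to control was -0.69 after ironomycin, -0.90 after ibrutinib and -1.25 after both drugs, all below 0. In JVM2 it was 0.45, 0.36 and 0.77, all above 0. MAVER1 stayed between -0.18 and 0.30. The fitted change over the lines was -0.20 (SE 0.28) with ironomycin, -0.13 (SE 0.29) with ibrutinib and -0.18 (SE 0.29) with both drugs. None of these passed the test.

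CXCR4, the receptor for CXCL12, had 15824 reads in the JEKO1 control, 14715 after ironomycin, 20823 after ibrutinib and 17118 after both drugs. JVM2 had 5084, 5810, 5170 and 6016 reads in that order, and MAVER1 had 24895, 27085, 26095 and 26341. MAVER1 was highest and JVM2 lowest under each treatment. The change over the lines was 0.02 (SE 0.12) with ironomycin, 0.15 (SE 0.12) with ibrutinib and 0.07 (SE 0.12) with both drugs, the smallest standard error among the members. Its widest departure within a line was a ratio of 1.32 with ibrutinib in JEKO1.

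CXCR5, the receptor for CXCL13, was near the limit of detection in JVM2, with 2 reads in the control, 2 after ironomycin, 1 after ibrutinib and 7 after both drugs. JEKO1 had 105 reads in the control, 43 after ironomycin, 16 after ibrutinib and 16 after both drugs. MAVER1 had 39, 27, 26 and 26 reads in that order. The control was the highest library in JEKO1 and in MAVER1, while in JVM2 the library with both drugs was the highest. The change over the lines was -0.98 (SE 0.52) with ironomycin, -1.64 (SE 0.56) with ibrutinib and -1.37 (SE 0.56) with both drugs. The change with both drugs had a Benjamini-Hochberg adjusted p of 0.0896 in edgeR's quasi-likelihood fit, and without JVM2 it was -1.81 with an adjusted p of 0.0358. Without JEKO1 it was -0.17 and was not called, and the change with ibrutinib was then -0.62.

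S1PR1 had 1009 reads in the JEKO1 control, 965 after ironomycin, 1018 after ibrutinib and 1434 after both drugs. JVM2 had 2411, 2345, 1904 and 1665 reads in that order, and MAVER1 had 2144, 1278, 1994 and 1433. With both drugs JEKO1 was at 1.34 times its control, JVM2 at 0.652 and MAVER1 at 0.638, so the lines did not move in the same direction. The change over the lines was -0.33 (SE 0.21) with ironomycin, -0.17 (SE 0.21) with ibrutinib and -0.27 (SE 0.21) with both drugs.

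ITGA4 had 4009 reads in the JEKO1 control, 3769 after ironomycin, 4764 after ibrutinib and 3788 after both drugs. JVM2 had 3920, 2775, 3360 and 2190 reads in that order, and MAVER1 had 1533, 1791, 1563 and 1668. JVM2 was lowest with both drugs, at 0.527 times its control, while JEKO1 was at 0.890 and MAVER1 at 1.04. The change over the lines was -0.19 (SE 0.17) with ironomycin, -0.01 (SE 0.16) with ibrutinib and -0.35 (SE 0.17) with both drugs.

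CSF1 acts through its receptor CSF1R on monocytes and macrophages. In JEKO1 it had 314 reads in the control, 2067 after ironomycin, 225 after ibrutinib and 6070 after both drugs. In JVM2 it had 926 reads in the control, 1434 after ironomycin, 988 after ibrutinib and 1333 after both drugs. In MAVER1 it had 153 reads in the control, 830 after ironomycin, 127 after ibrutinib and 944 after both drugs. In each line the libraries with ironomycin, alone or with ibrutinib, were above those without it. Across lines the treatment groups overlapped, because the JVM2 control lay above the MAVER1 library with both drugs. The mean level was 3.27 ± 1.34 log2 CPM in the controls, 5.14 ± 0.59 after ironomycin, 3.03 ± 1.56 after ibrutinib and 5.66 ± 1.33 after both drugs (SD, n = 3 lines).

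The question of what each drug did to the members was put to edgeR's quasi-likelihood test with cell line as a block, and a gene was called at a Benjamini-Hochberg adjusted p under 0.05 with a change of 1 or more on the log2 scale in either direction. With ironomycin against control, 0 of 7 members were called, where 0.214% of all genes tested were. At an unadjusted p under 0.05 there was 1 member, CSF1, where 4198 of all 18674 genes were. DESeq2 also called 0 members. CSF1 was at 1.83 (SE 0.65, adjusted p 0.14) and higher in 3 of 3 lines. Without JVM2 the CSF1 value was 2.51 with an adjusted p of 0.0206, which passes. It was not called without JEKO1, where it was lowest at 1.42, or without MAVER1. The median change of the members was -0.20, and that of all genes tested was 0.03.

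With ibrutinib against control, 0 of 7 members were called, and the share of all genes tested that edgeR called was 0.0%. At an unadjusted p under 0.05 there was 1 member, CXCR5, at -1.64 and lower in 3 of 3 lines, JVM2 by 1 read against 2. DESeq2 called 0 members and 11 genes in all, and edgeR had 680 genes at an unadjusted p under 0.05. CSF1 was at -0.13 (SE 0.64). The median change of the members was -0.13, against 0.00 for all genes tested.

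With both drugs against control, 1 of 7 members was called, where 6.29% of all genes tested were. The member was CSF1, at 2.60 (SE 0.68, adjusted p 0.0181) and higher in 3 of 3 lines. The call was lost without JEKO1, where the value was 1.48 (adjusted p 0.16), and without MAVER1, where it was 2.60 (adjusted p 0.15). It was also lost when only the control libraries and those with both drugs were used, at 2.37 (adjusted p 0.085). The JEKO1 library with both drugs, which held the highest CSF1 level, also had the lowest total of the 12 and the largest TMM factor (1.19). The call was kept with library totals and with DESeq2 size factors in place of TMM, and the part of the lower total was not tested. The monocyte and macrophage markers summed to 1.66 to 13.2 CPM in the controls and to 0.899 to 14.0 CPM with both drugs.

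The 3 comparisons above share their control libraries, so they are given side by side and not as separate evidence. Against ironomycin alone, the combination gave 0 of 7 members called by edgeR, with a share of 0.0% over all genes, 0 members at an unadjusted p under 0.05, and 0 members by DESeq2. CSF1 was at 0.78 (SE 0.62) in that comparison, where JEKO1 was at 2.91 times ironomycin alone, JVM2 at 0.912 and MAVER1 at 1.12. Against ibrutinib alone, the combination gave 1 of 7 members called, where 4.66% of all genes tested were. It was CSF1 again, at 2.73 (SE 0.69, adjusted p 0.0192) where JEKO1 was at 25.4 times ibrutinib alone, JVM2 at 1.30 and MAVER1 at 7.28. This call was lost without JEKO1 (1.52, adjusted p 0.19), without MAVER1 (2.67, adjusted p 0.17) and with only the 6 libraries compared (2.63, adjusted p 0.0732).

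**Figure D2:**
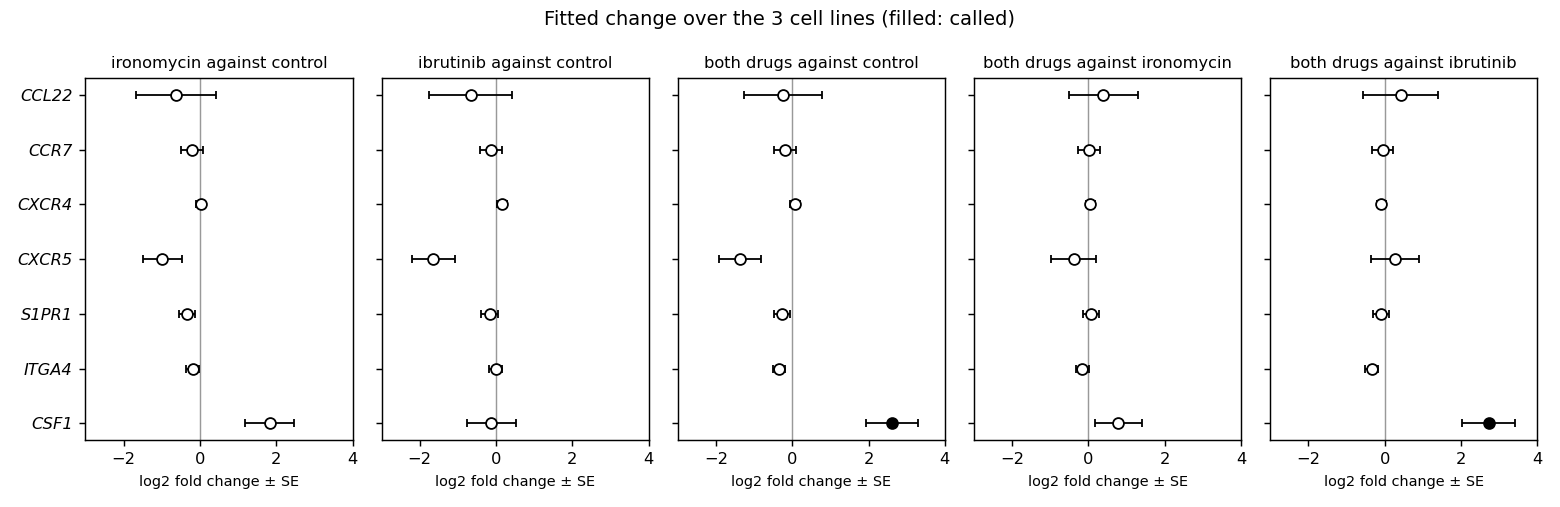
Fitted log2 fold change (x axis) with its standard error (bars) for each member (y axis) in the 5 treatment comparisons, each panel a comparison, with filled points for members called. The filled points are CSF1 with both drugs against control (2.60) and against ibrutinib (2.73), and the CXCR4 values run from -0.08 to 0.15.

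Whether the combination departed from the added single-drug changes was tested as an interaction. edgeR called 0 of 7 members, with a share of 0.0% over all genes tested, 0 members at an unadjusted p under 0.05, and 0 members by DESeq2. CSF1 departed from additivity by 0.91 (SE 0.89) and CXCR5 by 1.26 (SE 0.81), and neither passed the test.

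Whether a drug acted differently in the 3 lines was tested as a term of drug by cell line, over libraries with and without the other drug. The ironomycin effect differed between lines for 2 of 7 members, where 9.38% of all genes tested were called at an adjusted p under 0.05. CSF1 was called (adjusted p 0.00433 by edgeR), where JEKO1 was at 6.27 times its control after ironomycin alone, JVM2 at 1.49 and MAVER1 at 5.27. ITGA4 was called (adjusted p 0.0441), where JEKO1 was at 0.895 times its control, JVM2 at 0.681 and MAVER1 at 1.13. Without JVM2, neither was called, at adjusted p 0.21 for CSF1 and 0.11 for ITGA4, and without MAVER1 ITGA4 was at 0.49. The ibrutinib effect differed for 0 of 7 members by edgeR, with a share of 0.0% over all genes, and for 0 members by DESeq2. At an unadjusted p under 0.05 there were 2 members, CCR7 and CXCR5, where 466 of all 18674 genes were.

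CCL22 and CCR7, whose changes had opposite signs in JEKO1 and JVM2, had an adjusted p of 0.0826 and 0.20 for the ironomycin effect between lines. Without JEKO1 both were called by edgeR, at adjusted p 0.0421 for CCL22 and 0.00421 for CCR7, but neither without JVM2 or without MAVER1. With no filter on low counts CCL22 was called at adjusted p 0.00441. With the effects of both drugs allowed to differ by line in 1 model, which leaves 2 residual degrees of freedom in place of 4, 6 members differed for ironomycin and 5 for ibrutinib. In that model CCL22 had an adjusted p of 2.93e-05 for ironomycin and 0.00135 for ibrutinib, and CCR7 had 6.77e-05 and 9.83e-05. The same model called 4819 genes for ironomycin and 702 for ibrutinib, where the model with 1 drug at a time called 1751 and 0.

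**Figure D3:**
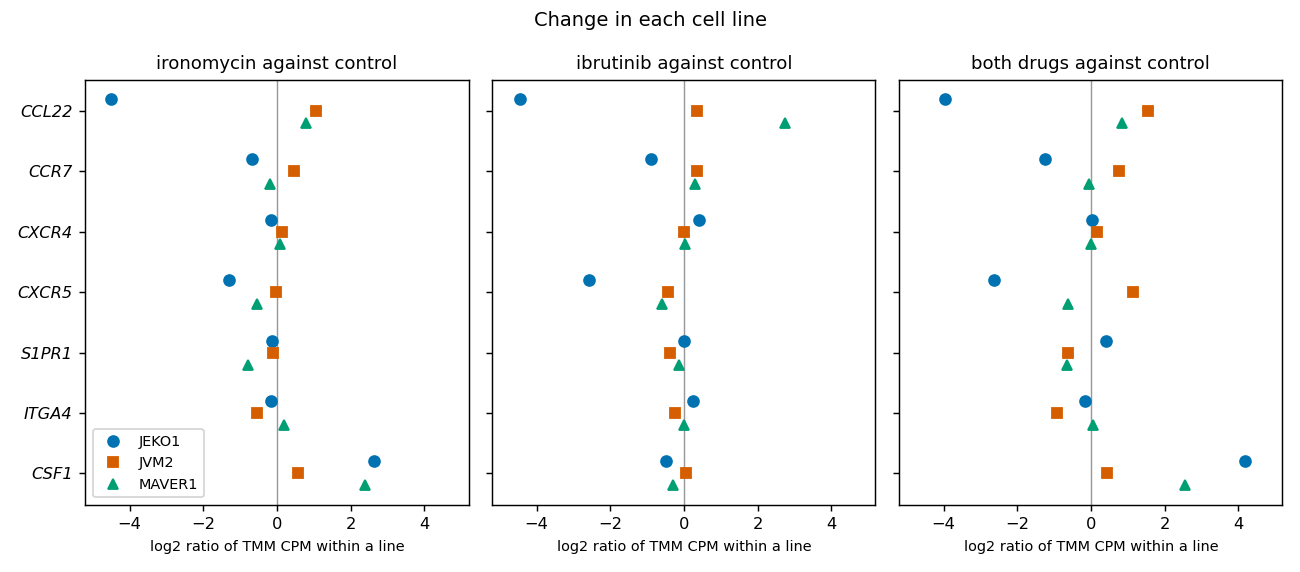
Log2 ratio of TMM CPM to the control of the same cell line (x axis) for each member (y axis), with 1 point per line and a panel for each treatment. CSF1 lies above 0 in all 3 lines with ironomycin and with both drugs, and CCL22 and CCR7 lie below 0 in JEKO1 and above 0 in JVM2 in all panels.

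The lines were then compared with each other over the 4 treatments, with treatment as a term. The 4 libraries of a line are different treatments of the same line, so the p-values measure the spread over them and not over cultures. JVM2 against JEKO1 called 5 of 7 members, where 46.8% of all genes tested were called. CCL22 was higher in JVM2 by 7.42 on the log2 scale (SE 0.91, adjusted p 1.75e-05), CCR7 by 4.46 (SE 0.28, adjusted p 7.78e-08) and S1PR1 by 1.09 (SE 0.19, adjusted p 0.000262). CXCR4 was lower in JVM2, at -1.45 (SE 0.11, adjusted p 3.07e-07), and CXCR5 at -3.49 (SE 0.61, adjusted p 0.000278). The S1PR1 value fell short of the threshold of 1 with scaling by library totals (0.86), without the controls (0.98) and without the ironomycin libraries (0.93).

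MAVER1 against JEKO1 called 3 of 7 members, where 34.2% of all genes tested were called. CCR7 was higher in MAVER1 at 1.78 (SE 0.25, adjusted p 8.88e-05), and ITGA4 at -1.16 (SE 0.14, adjusted p 3.01e-05) and CSF1 at -1.50 (SE 0.56, adjusted p 0.0341) were lower. The CSF1 call was lost without the ironomycin libraries (-1.65, adjusted p 0.0652) and without those with both drugs (-0.96, adjusted p 0.0779). CXCR4 at 0.75 and S1PR1 at 0.75 were higher in MAVER1 beyond the spread, at adjusted p 8.45e-05 and 0.00431, but under the fold threshold. CCL22 was at -0.54 (SE 1.16) and at 2.50 without the controls, where its adjusted p was 0.0317.

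MAVER1 against JVM2 called 5 of 7 members, where 40.0% of all genes tested were called. CXCR4 at 2.20 (SE 0.11, adjusted p 1.46e-08) and CXCR5 at 3.25 (SE 0.62, adjusted p 0.000666) were higher in MAVER1. CCL22 at -7.96 (SE 0.94, adjusted p 1.56e-05), CCR7 at -2.67 (SE 0.26, adjusted p 3.2e-06) and CSF1 at -1.95 (SE 0.58, adjusted p 0.0102) were lower. In order of level, CCR7 ran from JVM2 through MAVER1 to JEKO1 and CXCR4 from MAVER1 through JEKO1 to JVM2, with every step beyond the spread. JVM2 and MAVER1 did not differ beyond the spread in S1PR1 (adjusted p 0.12), nor JEKO1 and JVM2 in ITGA4 (0.13) or CSF1 (0.49), nor JEKO1 and MAVER1 in CXCR5 (0.65) or CCL22 (0.71). The share of members called was 71.4%, 42.9% and 71.4% in the 3 line comparisons, which with 7 genes was not tested against the shares of all genes.

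The genes nearest to each member were found by Pearson's r of log2 CPM centred within each line over the 12 libraries, which share their lines and depth, among genes with a symbol and a mean of at least 1 log2 CPM. For CSF1 they were P2RX7, an ATP-gated channel (r = 0.99), and MAFG, a small MAF transcription factor (0.99). For CCL22 they were ITSN2 (0.89) and BIRC3, an NF-kB target that encodes an inhibitor of apoptosis (0.86), and for CCR7 PANK1 (0.95) and SUPT5H (0.93). For CXCR4 they were GCSAM (0.96) and PAPLN (0.95), and for CXCR5 IL4I1 (0.94) and TP53I11 (0.91). S1PR1 was nearest to XYLT2 (0.95) and MFSD12 (0.92), and ITGA4 to RPS6KA5 (0.94) and CFAP298 (0.94). These are descriptions of 12 points, picked as the highest among at least 11212 genes.

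Other genes of the chemokine system were listed by function. Of 36 chemokine ligands matched, only 5 passed the filter on low counts, namely CCL22, CCL25, CCL28, CXCL10 and CXCL16, the last 4 named after their values were seen. With both drugs against control edgeR called 0 of the 5, where it called 6.29% of all genes tested, and DESeq2 called 0. At an unadjusted p under 0.05 there was 1 of the 5, where 7684 of all 18674 genes were. Against ibrutinib 1 of the 5 was called with both drugs, where 4.66% of all genes tested were. It was CXCL16, the ligand of CXCR6 (1.05, SE 0.31, adjusted p 0.0349). It rose in 3 of 3 lines, from 2.36 CPM with ibrutinib to 7.36 CPM with both drugs in JEKO1, 2.32 to 3.31 CPM in JVM2 and 0.22 to 0.40 CPM in MAVER1. The call was lost without JEKO1, without MAVER1 and with only the 6 libraries compared.

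Of 15 chemokine receptors tested, 3 were called with both drugs against control, where 6.29% of all genes tested were. Between lines, 15 were called for JVM2 against JEKO1, 7 for MAVER1 against JEKO1 and 12 for MAVER1 against JVM2, where the shares of all genes were 46.8%, 34.2% and 40.0%. CCR1, a receptor of inflammatory chemokines, fell from 2.24 to 0.92 CPM in JEKO1, from 0.77 to 0.22 CPM in JVM2 and from 0.55 to 0.16 CPM in MAVER1 (-1.52, SE 0.25, adjusted p 0.00379). CXCR3, the receptor of CXCL9 and CXCL10, was read almost only in JVM2, where it was at 63.2 CPM in the control and 27.1 CPM with both drugs, and its fitted change was -1.34 (SE 0.41, adjusted p 0.0345). DESeq2 did not call CXCR3. ACKR1, a scavenging receptor, was called higher (2.55, SE 0.70, adjusted p 0.0318), but had at most 35 reads in any JVM2 library and 0 in every MAVER1 library. CCR1 and CXCR3 were also called against ibrutinib, at -1.44 and -1.29, where 4.66% of all genes tested were. All of these calls of CCR1, CXCR3 and ACKR1 were lost without JEKO1 and without MAVER1, and those of CCR1 also with only the 6 libraries compared. With ironomycin alone edgeR called 0 of the 15, and DESeq2 called CCR1. At an unadjusted p under 0.05 there were 3 of the 15, where 4198 of all 18674 genes were.

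Among 29 tested genes of receptor signalling and desensitisation, 1 was called with both drugs against control, where 6.29% of all genes tested were. It was RGS2, a regulator that speeds the shut-off of G proteins. It fell from 15.3 to 3.67 CPM in JEKO1, from 6.82 to 2.40 CPM in JVM2 and from 30.2 to 7.49 CPM in MAVER1, with a fitted change of -1.88 (SE 0.17, adjusted p 0.000796). With only the 6 libraries compared it was at -1.90 with an adjusted p of 0.0558. With ibrutinib alone RGS2 had 230, 105 and 619 reads in JEKO1, JVM2 and MAVER1, against 609, 239 and 1094 in the controls. DESeq2 called 1 of the 29 with ibrutinib against control, where it called 11 genes in all. It also called 1 with both drugs against ironomycin, where it called 23 genes in all. With both drugs against control the median over the list was -0.36, with 2 of 29 genes above 0. The median over all genes was 0.05, and 10152 of 18674 were above 0. At an unadjusted p under 0.05 there were 21 of the 29, where 7684 of all 18674 genes were. With ironomycin alone the list median was -0.25, also with 2 of 29 above 0, where 9980 of all 18674 genes were. Of 14 genes of sphingosine 1-phosphate and oxysterol positioning and of 19 adhesion molecules, 0 in each list were called by edgeR or DESeq2 in any of the 5 treatment comparisons. With both drugs against control each list had 3 genes at an unadjusted p under 0.05, where 7684 of all 18674 genes tested were. The medians of the lists with both drugs were -0.08 and -0.08. Among the adhesion molecules ITGB1, the partner of ITGA4 in VLA-4, was at 185, 163 and 201 CPM in the JEKO1, JVM2 and MAVER1 controls and at 157, 142 and 198 CPM with both drugs. ITGB7, the other partner of ITGA4, had 693, 20985 and 2286 reads in the same controls and 555, 13815 and 1326 with both drugs. Neither partner was called, and both were named after their values were seen.

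Of 9 tested macrophage growth factors and cytokines, CSF1 was the 1 called with both drugs against control, where 6.29% of all genes tested were. CSF1R, its receptor, was at 0.0528 to 4.88 CPM over the 12 libraries. Of 22 genes that respond to the BCR and NF-kB, EGR1 (-1.57, SE 0.49), EGR2 (-1.49, SE 0.48) and NR4A1 (-1.32, SE 0.25), all immediate early transcription factors, were called lower with both drugs, at adjusted p 0.0375, 0.0408 and 0.00521. These were 3 of the 22, where 6.29% of all genes tested were called. With both drugs EGR1 and EGR2 were above their control in MAVER1. All of EGR1, EGR2 and NR4A1 were already below their control in every line with ibrutinib alone. NR4A1 had 1707, 361 and 1757 reads in the JEKO1, JVM2 and MAVER1 controls. It had 636, 175 and 616 reads with ibrutinib alone and 509, 264 and 641 with both drugs. With ibrutinib alone 0 of the 22 fitted changes over the lines lay above 0, with a median of -0.55, where 9291 of all 18674 genes did. The lines were not alike in this, since 0 of the 22 were above their control in JEKO1, 12 in JVM2 and 6 in MAVER1. NFKBIA, the inhibitor of NF-kB that NF-kB itself induces, went from 50.6 to 20.1 CPM in JEKO1, from 169 to 246 CPM in JVM2 and from 78.6 to 80.2 CPM in MAVER1, and was chosen after its values were seen. With ibrutinib alone edgeR called 0 of the 22, and DESeq2 called 2. At an unadjusted p under 0.05 there were 8 of the 22, where 680 of all 18674 genes were. Against ibrutinib 1 of the 22 was called with both drugs, where 4.66% of all genes tested were. It was NR4A3, which was higher (1.13, SE 0.34, adjusted p 0.0354). In the control, with ibrutinib and with both drugs NR4A3 had 420, 165 and 467 reads in JEKO1. In that order it had 30, 24 and 38 reads in JVM2 and 124, 68 and 150 in MAVER1. The ibrutinib library was thus the lowest of these in each line. Of 7 KLF2 and FOXO regulators, 1 was called with both drugs against ibrutinib, where 4.66% of all genes tested were. It was KLF2, a transcription factor that raises S1PR1 in lymphocytes, which was lower (-1.01, SE 0.28, adjusted p 0.0261). Its level with both drugs was 0.369 times that with ibrutinib in JEKO1, 0.501 in JVM2 and 0.661 in MAVER1. S1PR1 in that comparison was at 1.33, 0.842 and 0.704 times in the same order. EGR1, EGR2, NR4A3 and KLF2 lost the call when any 1 line was left out, and NR4A1 without JEKO1 and without MAVER1. All 5 also lost it with only the 6 libraries compared, KLF2 by its size alone, which was just under the fold threshold. DESeq2 did not call EGR1 (adjusted p 0.17), and with library totals EGR2 had an adjusted p of 0.0506 and KLF2 was at -0.91.

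**Figure D4:**
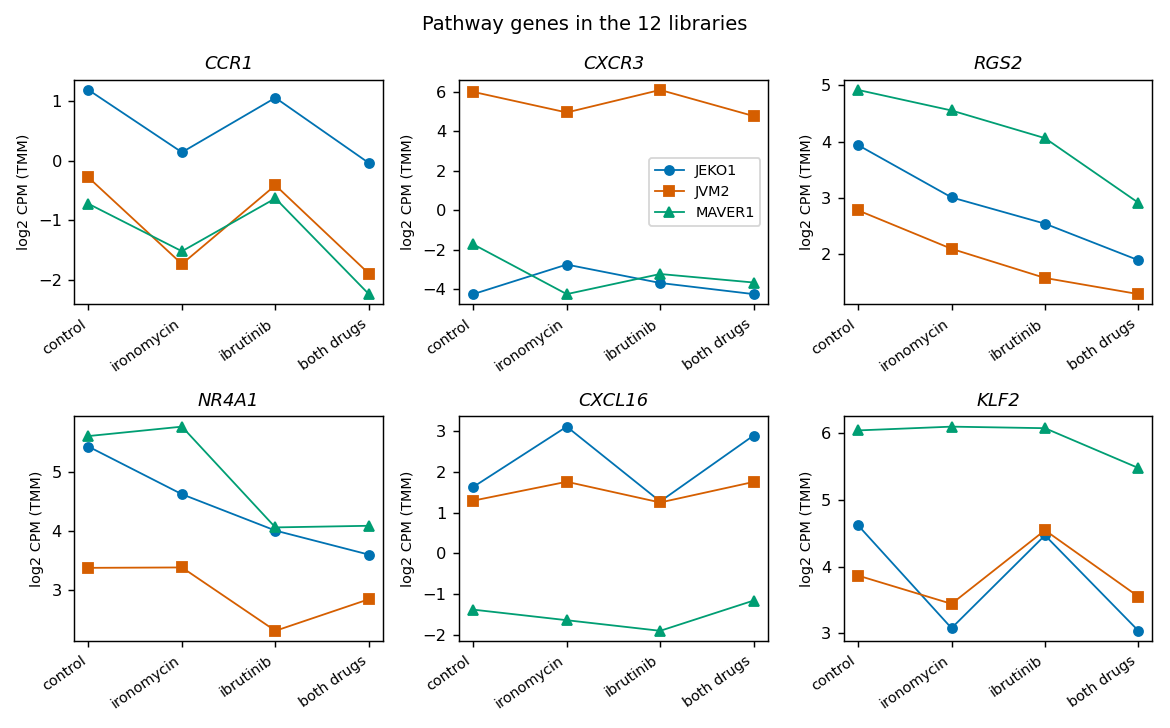
Level (log2 CPM after TMM scaling, y axis, a separate scale for each panel) of 6 pathway genes called with both drugs, against control (CCR1, CXCR3, RGS2, NR4A1) or against ibrutinib (CXCL16, KLF2), by treatment (x axis), with 1 point per library and a line joining the libraries of a cell line. RGS2 is lower with both drugs than in the control in all 3 lines, and CXCR3 is high in JVM2 alone.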

How the data were processed

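RNA was measured in 12 libraries, 1 for each of 3 cell lines and 4 treatments. The authors deposited raw counts of paired-end reads per Ensembl gene, without normalization, and 0 columns were left unused. The submitters' processing notes name STAR, GRCh37 and DESeq2; the program that counted reads was not given in the sources used here. Genes were named through a table of Ensembl identifiers, which left 23978 of 63677 without a symbol, and 211 of 224 listed genes were matched. The copies of CCL3 and CCL4 were among those not matched. Promoter sequences are from RefSeq on GRCh38.p14, and no coordinates were converted.

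The counts were tested in edgeR 4.0.16 (R 4.3.3) by the quasi-likelihood F-test after filterByExpr by treatment and TMM scaling, with treatment and cell line as terms in 1 fit of all libraries and Benjamini-Hochberg adjustment over all 18674 genes tested. Log2 CPM used a prior count of 2. The line was kept as a block since its 4 libraries share the line. Deviations from treatment means correlated at 0.926 to 0.976 for the 18 pairs of libraries within a line and at -0.684 to -0.127 for the 36 pairs from different lines. Effects of a drug by line were tested on 2 coefficients together.

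The text names all 9 members. It also names listed genes called in a treatment comparison, at most 3 in each direction restricted to means of 1 log2 CPM or more where more were called, and the 2 genes nearest each member. Other listed genes were named outside this rule. They were the markers MS4A1, PAX5, CCND1, CR2, MRC1, DCN and LUM, the ligands CCL25, CCL28 and CXCL10, and ITGB1, ITGB7, NFKBIA and CSF1R. The members and the 13 other gene lists were chosen with earlier results of these data known. The tests were checked on simulated counts. Alternatives were DESeq2 1.42.0, DESeq2 size factors, library totals, no filter, no block, only the libraries compared, both drugs by line in 1 model, and leaving out each line or treatment. Python 3.11.15, pandas 2.3.3 and matplotlib 3.10.9 served for tables and plots. The exact 95% binomial intervals cover counting error only. No 2 libraries agreed within sampling noise. Protein and migration were not analysed here.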

Additional observations from a re-analysis of the deposited data

Results flagged for a closer look

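The change with ironomycin differed between the cell lines for CSF1, with an adjusted p of 0.00433 by edgeR's test of drug by line. With ironomycin alone JEKO1 moved by 2.64 from its control on the log2 scale, JVM2 by 0.57 and MAVER1 by 2.38, higher in 3 of 3 lines. Without JVM2 it was not called (adjusted p 0.21). It also differed for ITGA4, with an adjusted p of 0.0441, from -0.16 in JEKO1 and -0.55 in JVM2 to 0.18 in MAVER1, and was not called without JVM2 (adjusted p 0.11) or without MAVER1 (0.49). JEKO1 received a lower dose of ironomycin than the other lines, so line and dose cannot be told apart. JVM2 and MAVER1 received the same dose of ironomycin. The test also used libraries with ibrutinib, given at 1.5 μM in JVM2 and 6.25 μM in MAVER1. JVM2 also had less serum and a lower cell density, and the part of each was not tested.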

How the results depend on the processing

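Each result was recomputed under each alternative listed in the methods. Of 93 counts of members called, 78 stayed within 1.5 times the reported count. With DESeq2, DESeq2 size factors, library totals or no filter, each count kept its value or stayed within that limit. Scaling by library totals moved the median of all genes from 0.05 to 0.18 with both drugs against control, from -0.03 to -0.25 for JVM2 against JEKO1 and from -0.03 to -0.21 for MAVER1 against JEKO1.

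Cell line pairs the treatments. With no replicate block, 0 members were called with both drugs against control and 0 against ibrutinib, and CSF1 was at 2.41 and 2.48. With only the 6 libraries compared, these counts were also 0 and 0. Leaving out each line in turn gave 0 to 1 members for ironomycin against control, 0 to 2 for both drugs against control, 0 to 1 for both drugs against ibrutinib, and 1 to 4 for the ironomycin effect between lines. With both drugs by line in 1 model, the counts were 6 for ironomycin and 5 for ibrutinib.

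The sign of the change turned for some members, 44 of 650 recomputed values, and in all but CCL22 for MAVER1 against JEKO1 without the controls the value past the turn was not called. Without the block, CCL22 turned to 0.99 and CCR7 to 0.31 for ironomycin against control, CCL22 turned to 0.31, CCR7 to 0.28 and ITGA4 to 0.0049 for ibrutinib against control, CCL22 turned to 1.48 and CCR7 to 0.58 for both drugs against control, S1PR1 turned to -0.063 for both drugs against ironomycin, CCR7 turned to 0.30 for both drugs against ibrutinib, and CCR7 turned to -0.0086 for the departure from additivity. With library totals, ITGA4 turned to 0.0071 for ibrutinib against control, and CCR7 turned to 0.037, CXCR4 to 0.020 and S1PR1 to 0.011 for both drugs against ibrutinib. With DESeq2, CCL22 turned to -0.47 for both drugs against ibrutinib, and CCL22 turned to 0.52 for MAVER1 against JEKO1. With only the 6 libraries compared, CCR7 turned to -0.020 for both drugs against ironomycin. Ironomycin against control with each line left out in turn gave CCL22 from -3.16 to 0.99, CCR7 from -0.50 to 0.13 and CXCR4 from -0.066 to 0.11. Ibrutinib against control with each line left out in turn gave CCL22 from -1.66 to 1.002, CCR7 from -0.37 to 0.32 and ITGA4 from -0.15 to 0.13. Both drugs against control with each line left out in turn gave CCL22 from -2.87 to 1.40, CCR7 from -0.70 to 0.37 and CXCR4 from -0.014 to 0.092. Both drugs against ironomycin with each line left out in turn gave CCR7 from -0.20 to 0.24, CXCR4 from -0.021 to 0.11, CXCR5 from -0.72 to 0.34 and S1PR1 from -0.22 to 0.36. Both drugs against ibrutinib with each line left out in turn gave CCL22 from -1.56 to 1.03, CCR7 from -0.38 to 0.11, CXCR4 from -0.23 to 0.072, CXCR5 from -0.087 to 0.65 and S1PR1 from -0.39 to 0.11. JVM2 against JEKO1 with each treatment left out in turn gave CSF1 from -0.23 to 1.29. MAVER1 against JEKO1 with each treatment left out in turn gave CCL22 from -1.96 to 2.50 and CXCR5 from -0.51 to 0.28. The departure from additivity with each line left out in turn gave CCL22 from -0.59 to 2.10 and CCR7 from -0.088 to 0.33. The cause was not tested.

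With 1 library per line and treatment, the size of a change within a line has no replicate. CCL22 in JEKO1 and MAVER1, and CXCR5 in all lines, rest on counts at which counting error is large.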
